A study of Mus musculus with 16 samples.

Results

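The proteasome is described here through every mouse gene whose symbol begins with Psm, a letter from a to g and a digit, with pseudogene symbols left out. This rule found 51 genes among the 32989 identifiers of the count table, and it used no measured value. By role they were 7 alpha ring genes, 7 constitutive beta ring genes, 3 inducible catalytic genes, 9 genes of the 19S base, 8 of the 19S lid, 3 base assembly chaperones, 4 core assembly chaperones and 6 activators or inhibitors. The remainder were the testis alpha gene Psma8, the thymus beta gene Psmb11, and 2 genes named after a subunit they bind, Psmc3ip and Psme3ip1. Of the 51 members, 50 passed the filter of a mean count of at least 5 and were tested among 19049 genes, and Psma8 did not pass.

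Libraries came from hair follicle stem cell (HFSC) organoids of 4 wild-type C57BL/6J mice, grown as 3D-3C cultures for 2 weeks. Cells were left untreated (control) or received N1-acetylspermidine (N1-AcSpd), a polyamine carrying an acetyl group, for 72 h, and were sorted by the surface proteins integrin alpha6 and CD34 into alpha6+/CD34- progenitors and alpha6+/CD34+ HFSCs. Each mouse gave 1 library to each of the 4 groups, so that 16 libraries of 3' RNA sequencing with unique molecular identifiers (UMIs) were compared. The age of the mice and the concentration of N1-AcSpd were not given in the labels.

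The 26S proteasome degrades proteins that carry ubiquitin chains. Its 20S core is a barrel of alpha and beta rings, in which Psmb5, Psmb6 and Psmb7 hold the cutting sites, and its 19S cap has a base of ATPases (Psmc genes) that unfold substrates and a lid that removes ubiquitin. Interferon-responsive and immune cells exchange the cutting subunits for Psmb8, Psmb9 and Psmb10, which gives the immunoproteasome, and the 11S activator of Psme1 and Psme2 can take the place of the cap. The 11S activator and the immunoproteasome are known for making peptides that Tap1 and Tap2 carry to MHC class I molecules.

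Library totals ran from 15480075 to 29074855 UMIs, and values below are CPM (UMI counts divided by the scaled library total, per 1e6) after TMM scaling, given for mice 1 to 4 in order and then as mean ± SD (n = 4). A 3' UMI count is not divided by transcript length, and no level is compared between genes. The sort marker Cd34 lay between 2.87 and 3.65 CPM in CD34- libraries and between 43.4 and 64.04 CPM in CD34+ libraries. Of 6 HFSC and follicle markers, Cd34 among them, 4 were higher in CD34+ cells, 1 was lower and 1 did not pass in each condition. Their log2 fold changes ran from -0.34 to 3.97 in untreated and from -0.17 to 4.03 in N1-AcSpd cells. All 10 differentiated keratinocyte markers fell in CD34+ cells in both conditions, and their summed level ran from 1209 to 1968 CPM in CD34- and from 322 to 447 CPM in CD34+ libraries. The 7 immune marker genes summed to 10.6 to 13.6 CPM in CD34- and 10.7 to 14.6 CPM in CD34+ libraries. The defining Ptprc reached at most 2.03 CPM and Cd74 at most 0.110 CPM, with Cd74 at 0 in all CD34- libraries. Most of the sum lay in other genes of the list. Of 3 immune markers tested in edgeR, 1 was lower in untreated CD34+ cells, and none was higher. With N1-AcSpd 1 was higher and 1 lower, with log2 fold changes from -3.40 to 0.44. The part of differentiated cells in the differences between cell types was not tested, and fewer cells of a type cannot be told apart from less RNA per cell in such bulk samples.

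The promoters below belong to the 4 inducible and activator genes that rose in CD34+ cells in both conditions, which leaves out Psmb10, and to Psmb5, the constitutive counterpart of Psmb8. Each runs from 250 bases before to 50 bases after the RefSeq start, on GRCm38.p6, 5' to 3' on the gene's strand. Capitals mark a gamma-activated site core (TTCNNNGAA), the core of the interferon-stimulated response element (2 GAAA blocks with 2 bases between them) or an antioxidant response element core (TGACNNNGC), searched on both strands with N for any base.
Psmb8 (chr17:34197945-34198244, + strand): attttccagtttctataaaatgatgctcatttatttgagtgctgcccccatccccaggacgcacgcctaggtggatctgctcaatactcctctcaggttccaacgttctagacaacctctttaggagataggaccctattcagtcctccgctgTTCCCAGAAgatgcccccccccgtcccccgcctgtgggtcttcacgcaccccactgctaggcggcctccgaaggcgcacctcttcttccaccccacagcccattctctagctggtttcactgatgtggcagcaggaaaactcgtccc
Psmb9 (chr17:34187281-34187580, - strand): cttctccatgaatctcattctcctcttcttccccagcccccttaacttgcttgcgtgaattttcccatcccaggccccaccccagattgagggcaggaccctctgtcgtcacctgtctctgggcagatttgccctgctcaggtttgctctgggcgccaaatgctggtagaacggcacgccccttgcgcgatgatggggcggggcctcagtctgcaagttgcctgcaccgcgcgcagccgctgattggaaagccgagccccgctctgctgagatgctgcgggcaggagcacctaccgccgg
Psme1 (chr14:55578244-55578543, + strand): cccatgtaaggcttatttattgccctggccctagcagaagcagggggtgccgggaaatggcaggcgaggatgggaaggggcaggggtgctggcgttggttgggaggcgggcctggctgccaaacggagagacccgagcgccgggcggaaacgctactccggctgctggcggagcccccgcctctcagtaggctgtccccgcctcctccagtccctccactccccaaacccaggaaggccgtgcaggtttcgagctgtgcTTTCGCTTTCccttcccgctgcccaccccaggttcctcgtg
Psme2 (chr14:55591052-55591351, - strand): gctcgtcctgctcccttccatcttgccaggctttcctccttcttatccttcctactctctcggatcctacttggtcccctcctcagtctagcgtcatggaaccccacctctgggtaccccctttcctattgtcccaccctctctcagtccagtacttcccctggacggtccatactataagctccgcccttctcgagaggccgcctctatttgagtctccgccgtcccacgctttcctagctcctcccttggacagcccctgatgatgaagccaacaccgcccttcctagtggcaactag
Psmb5 (chr14:54617946-54618245, - strand): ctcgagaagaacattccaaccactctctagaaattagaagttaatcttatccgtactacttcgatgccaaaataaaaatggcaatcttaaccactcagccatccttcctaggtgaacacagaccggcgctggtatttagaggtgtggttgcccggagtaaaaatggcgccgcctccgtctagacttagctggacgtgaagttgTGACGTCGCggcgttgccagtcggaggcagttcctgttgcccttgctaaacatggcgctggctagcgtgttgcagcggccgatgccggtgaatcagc
Psmb8 held the gamma-activated core, Psme1 the interferon-stimulated core just after its RefSeq start, and Psmb5 the antioxidant core, whereas none of these letters was found in the Psmb9 and Psme2 windows. The annotated genes of Psmb8, Psmb9 and Psme1 begin upstream of these windows, at 34197721, 34187764 and 55578123. Their windows thus lie inside the annotated gene and hold no bases before those ends. Among 43 members with a promoter in the reference, the gamma-activated core was present in 3 (Psmb8, Psmd2 and Psmg1, 6.98% against 9.55% of 27025 genes). The interferon-stimulated core was present in 5 (Psmb3, Psmd4, Psmd9, Psme1 and Psmg4, 11.6% against 3.99%), and the antioxidant core in 6 (Psmb5, Psmb6, Psmc6, Psmd9, Psmd12 and Psme4, 13.95% against 13.99%). A match of letters is a description and not a binding site.

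The first comparison asked which members separate HFSCs from progenitors without N1-AcSpd. The inducible catalytic genes were higher in CD34+ cells, and 14 of 31 constitutive 26S subunits fell on TMM scaling, while the other 17 did not pass. With edgeR's quasi-likelihood test and Benjamini-Hochberg adjustment over all 19049 genes, 26 of 50 members passed an adjusted p of 0.05, against 32.1% of all genes. Of these, 10 rose in CD34+ cells (16.1% of all genes rose) and 16 fell (16.1% fell). In N1-AcSpd cells 23 members passed (33.3% of all genes), 9 of them higher (16.5%) and 14 lower (16.8%). 20 members passed in both conditions with the same direction, which is 76.9% of the untreated calls and 87.0% of the N1-AcSpd calls. The same shares over all genes are not given, so these percentages are not read as particular to members. The count was 15 in untreated cells without mouse 1 (4667 of 18948 genes) and 15 in N1-AcSpd cells without mouse 4 (4927 of 19038 genes).

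The split of calls by direction changed with the scaling. When counts were scaled by library totals alone, the all-gene median went from 0.02 to 0.14 (log2) in untreated cells. It went from -0.01 to 0.11 in N1-AcSpd cells. The called members then split into 13 higher and 1 lower in untreated cells, and 17 higher and 0 lower in N1-AcSpd cells. In either direction, 14 of 50 members and 6623 of all 19049 genes passed in untreated cells. In N1-AcSpd cells 17 of 50 members and 6696 of all 19049 genes passed. On this scaling the share of members called was no higher than that of all genes in either condition. Relative to the median of all genes, the median of the 31 constitutive 26S subunits stood at -0.14 in untreated and -0.09 in N1-AcSpd cells on TMM scaling, and at -0.14 and -0.08 on library totals. 29 and 27 of the 31 lay below the median of all genes on either scaling. A change of scaling shifts all genes by nearly the same amount. Agreement of these relative values between scalings was therefore fixed in advance and is no check of the direction.

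Psmb8 (ENSMUSG00000024338, chromosome 17, 34197721 to 34201454 on GRCm38) encodes the inducible counterpart of Psmb5. It was at 19.5, 14.7, 16.9 and 13.1 CPM in untreated CD34- libraries and at 41.4, 34.8, 40.5 and 31.8 CPM in untreated CD34+ libraries. With N1-AcSpd it was at 19.7, 13.3, 15.2 and 13.2 CPM in CD34- and at 36.8, 35.1, 38.3 and 34.7 CPM in CD34+ libraries. Every CD34+ library lay above every CD34- library. The means were 16.1 ± 2.78 and 37.1 ± 4.58 CPM without and 15.4 ± 3.02 and 36.2 ± 1.67 CPM with N1-AcSpd, which is a log2 difference of 1.21 ± 0.14 (SE, adjusted p = 2.2e-05) in untreated and 1.24 ± 0.14 (SE, adjusted p = 1.5e-05) in N1-AcSpd cells. An antisense gene model, Gm20496, had counts within 2% of those of Psmb8 in all 16 libraries, so that the source strand of these tags cannot be told apart.

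Psmb9 (ENSMUSG00000096727, chromosome 17, 34181987 to 34187764), the inducible counterpart of Psmb6, had the largest fold change of any member tested in both cell type comparisons. It was at 10.6, 6.07, 7.62 and 6.85 CPM in untreated CD34- and at 23.8, 21.7, 23.3 and 21.98 CPM in untreated CD34+ libraries, and at 8.74, 5.75, 6.04 and 6.07 and 23.3, 17.8, 22.1 and 23.4 CPM with N1-AcSpd. The CD34- and CD34+ libraries did not overlap, and mouse 1 was the highest of the CD34- libraries in both conditions. The log2 fold change was 1.54 ± 0.17 (SE, adjusted p = 1.2e-05) in untreated cells and 1.70 ± 0.17 (SE, adjusted p = 4.5e-06) in N1-AcSpd cells, in 4 of 4 mice each. Psmb9 lies head to head with the peptide transporter gene Tap1, and Psmb8 and Psmb9 are neighbours in the MHC region with Tap1 and Tap2.

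Psmb10 (ENSMUSG00000031897, chromosome 8, 105935735 to 105938444), the inducible counterpart of Psmb7, differed less. It was at 14.8, 12.9, 16.2 and 14.6 CPM in untreated CD34- and 17.1, 16.996, 18.04 and 16.2 CPM in untreated CD34+ libraries, and the ranges just missed each other. The log2 fold change was 0.23 ± 0.07 (SE, adjusted p = 0.016) in untreated cells and 0.14 ± 0.06 (SE, adjusted p = 0.11) in N1-AcSpd cells, where the groups overlapped. The untreated call was lost in 3 of 20 runs that left out a library or a mouse, and the difference between the 2 effects did not pass (interaction -0.08 ± 0.09, adjusted p = 1.0).

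**Figure D1:**
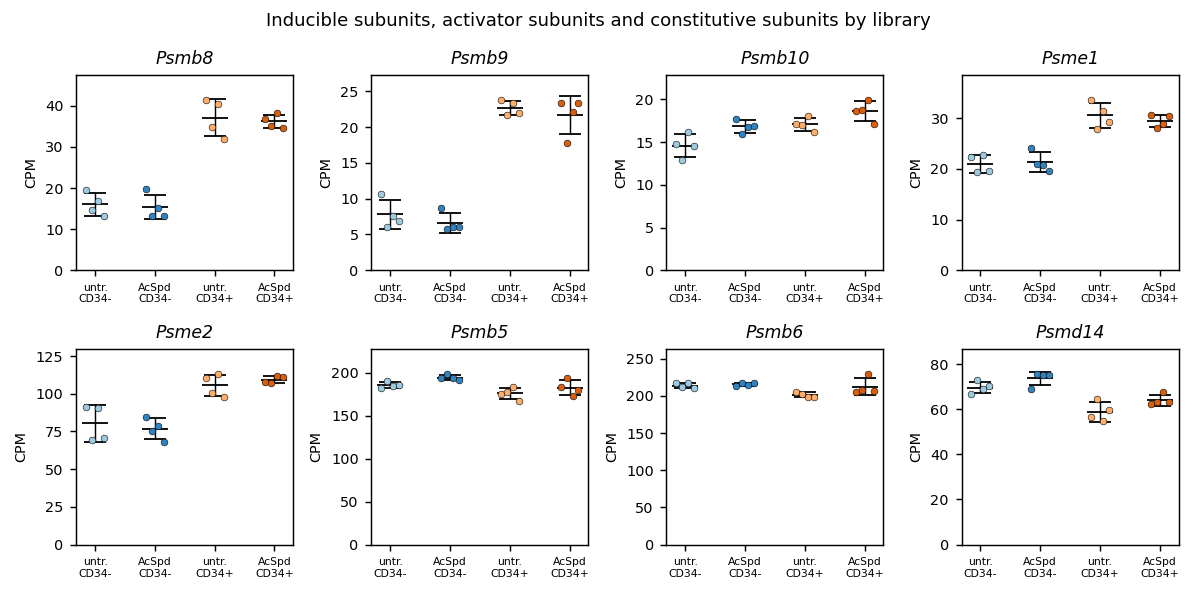
CPM of 3 inducible subunits, 2 activator subunits, 2 constitutive catalytic subunits and the lid subunit Psmd14 in each library (points), with mean and SD over 4 mice (bars), for the 4 groups on the horizontal axis. Psmb8, Psmb9, Psme1 and Psme2 had no overlap between CD34- and CD34+ libraries, whereas Psmd14 was lower in CD34+ libraries by log2 differences of 0.24 and 0.20 on TMM scaling and passed no test on library totals.

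The counts of each inducible gene were divided by those of its constitutive counterpart in the same library, which needs no scaling between libraries. This ratio is read between groups only. Psmb8 counts were 10.7, 7.75, 9.16 and 7.06 percent of Psmb5 counts in untreated CD34- libraries and 23.6, 19.6, 22.1 and 19.1 percent in untreated CD34+ libraries. With N1-AcSpd they were 10.2, 6.72, 7.88 and 6.92 percent and 20, 18.1, 22.2 and 19.3 percent. CD34- and CD34+ libraries were fully separated, with a mean log2 ratio higher by 1.30 in untreated and by 1.35 in N1-AcSpd CD34+ cells. Psmb9 counts were 3.63 ± 0.883 percent of Psmb6 counts in untreated CD34- and 11.3 ± 0.472 percent in untreated CD34+ libraries, and 3.09 ± 0.681 and 10.2 ± 1.38 percent with N1-AcSpd. These libraries were separated as well, and the mean log2 ratios differed by 1.66 and 1.74. For Psmb10 and Psmb7 the ratio is given after the counts of a pseudogene inside Psmb7 were taken off, and it was 38.1 ± 3.20, 43.7 ± 3.08, 49.999 ± 4.30 and 52.5 ± 11.4 percent in untreated CD34-, N1-AcSpd CD34-, untreated CD34+ and N1-AcSpd CD34+ libraries. Its mean log2 ratio was higher by 0.39 in untreated and by 0.25 in N1-AcSpd CD34+ cells (1.09 and -0.04 on the counts as deposited), and the N1-AcSpd groups touched, the highest CD34- library (-1.11) lying above the lowest CD34+ library (-1.12). The N1-AcSpd difference was 0.10 without N1-AcSpd CD34+ mouse 3. The ratio in that library was 69.6 percent, beside 46.1, 48.4 and 46.1 percent in the other mice. Counts of Nek6, which overlaps Psmb7 on the other strand, were not taken off in this ratio.

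**Figure D2:**
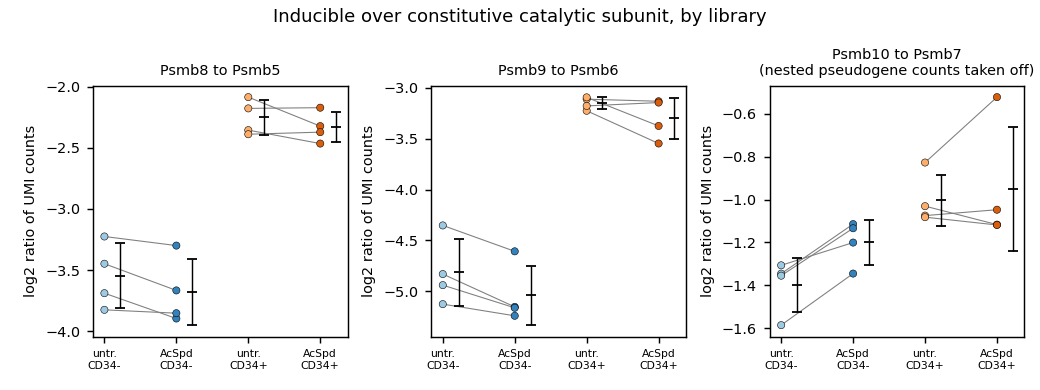
Log2 ratio of the UMI counts of each inducible catalytic gene to its constitutive counterpart, per library (points, lines joining the untreated and treated library of a mouse) with mean and SD (bars) for the 4 groups on the horizontal axis. The Psmb8 and Psmb9 ratios of all CD34+ libraries lay above those of all CD34- libraries, and the Psmb10 ratio, with nested pseudogene counts taken off Psmb7, differed by 0.39 and 0.25.

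The 11S activator genes rose together with the inducible subunits. Psme1 (ENSMUSG00000022216, chromosome 14, 55578123 to 55581529) was at 22.3, 19.3, 22.8 and 19.7 CPM in untreated CD34- and 33.6, 27.9, 31.4 and 29.2 CPM in untreated CD34+ libraries, a log2 difference of 0.54 ± 0.08 (SE, adjusted p = 0.00012). In N1-AcSpd cells it was at 24.1, 21.04, 20.7 and 19.6 and 30.6, 27.99, 28.8 and 30.3 CPM, a log2 difference of 0.46 ± 0.08 (SE, adjusted p = 0.00035). Neither condition had an overlap between the cell types. Psme2 (ENSMUSG00000079197, chromosome 14, 55587441 to 55591113), its partner in the ring and its neighbour on the chromosome, was at 91.4, 69.1, 90.7 and 70.7 CPM in untreated CD34- and 110.4, 101, 113 and 97.9 CPM in untreated CD34+ libraries. With N1-AcSpd it was at 84.7, 75.5, 78.7 and 68.1 and 108, 107, 112 and 111 CPM. The groups were separated again, with log2 fold changes of 0.39 ± 0.09 (SE, adjusted p = 0.0057) and 0.51 ± 0.09 (SE, adjusted p = 0.00079). Psme2 is 99.4% identical over 794 bases to Psme2b, so that tags of one may be counted for the other.

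Psme3 (ENSMUSG00000078652, chromosome 11, 101316213 to 101323537), which forms a nuclear activator of the core, fell in CD34+ cells. It was at 26.4, 25.9, 24.5 and 23.4 CPM in untreated CD34- and 21.4, 21.98, 22.3 and 19.2 CPM in untreated CD34+ libraries, with no overlap and a log2 difference of -0.24 ± 0.05 (SE, adjusted p = 0.002). In N1-AcSpd cells the log2 fold change was -0.19 ± 0.05 (SE, adjusted p = 0.009). On library totals it was -0.13, still past the threshold, in untreated cells and -0.07, not past it, in N1-AcSpd cells. Psme4, the large activator PA200, had log2 fold changes of -0.21 ± 0.11 (SE, adjusted p = 0.19) and -0.05 ± 0.11 (SE, adjusted p = 0.81) and passed in neither. Psmf1, an inhibitor of the core, had log2 fold changes of 0.10 ± 0.11 (SE, adjusted p = 0.56) and 0.03 ± 0.11 (SE, adjusted p = 0.88) and did not pass either.

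Among the 14 constitutive genes of the 20S core, 5 fell in untreated CD34+ cells (Psma2, Psma3, Psma7, Psmb3 and Psmb4) and 3 in N1-AcSpd CD34+ cells (Psma3, Psmb3 and Psmb4), none rose on TMM scaling, and on library totals none of the 14 fell while 1 and 4 of them rose. Psmb3, a structural beta subunit, was at 171, 168, 174 and 179 CPM in untreated CD34- and 149, 162, 152 and 149 CPM in untreated CD34+ libraries. Those libraries did not overlap, and the log2 fold change was -0.18 ± 0.04 (SE, adjusted p = 0.0019), and -0.17 ± 0.04 (SE, adjusted p = 0.0026) in N1-AcSpd cells. Psma3 differed by -0.12 ± 0.03 (SE, adjusted p = 0.004) and -0.13 ± 0.03 (SE, adjusted p = 0.0022), and an antisense transcript held 83.2 to 85.0% as many counts as Psma3. The cutting subunits themselves did not pass in either condition. Psmb5 was at 186 ± 3.30 CPM in untreated CD34- and 176 ± 6.81 CPM in untreated CD34+ cells, a log2 difference of -0.08 ± 0.04 (SE, adjusted p = 0.12), and -0.09 ± 0.04 (SE, adjusted p = 0.073) in N1-AcSpd cells. Psmb6 was at 214 ± 3.39 and 201 ± 3.18 CPM without N1-AcSpd, with log2 fold changes of -0.09 ± 0.03 (SE, adjusted p = 0.055) and -0.02 ± 0.03 (SE, adjusted p = 0.67). The median log2 fold change over the alpha ring was -0.05 and -0.02 and over the beta ring -0.10 and -0.09 in untreated and N1-AcSpd cells, beside 0.02 and -0.01 over all genes tested.

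The lid had the lowest median of the 19S and 20S parts, at -0.19 in untreated and -0.16 in N1-AcSpd cells on TMM scaling. 5 of its 8 genes fell in each condition, and none passed on library totals. Psmd14, the lid's ubiquitin-removing enzyme, was at 66.7, 72.9, 68.9 and 70.3 CPM in untreated CD34- and 56.5, 64.7, 54.9 and 59.8 CPM in untreated CD34+ libraries. With N1-AcSpd it was at 69.3, 75.6, 75.2 and 75.1 and 62.4, 63.3, 67.7 and 63.1 CPM. CD34+ libraries were lower without overlap in both conditions, with log2 fold changes of -0.24 ± 0.05 (SE, adjusted p = 0.0027) and -0.20 ± 0.05 (SE, adjusted p = 0.0077), and library totals gave -0.13 and -0.08. Psmd6, a scaffold of the lid, differed by -0.21 ± 0.05 (SE, adjusted p = 0.0043) and -0.25 ± 0.05 (SE, adjusted p = 0.00098), Psmd3 by -0.20 ± 0.05 (SE, adjusted p = 0.0082) and -0.16 ± 0.05 (SE, adjusted p = 0.021), and Psmd8 by -0.15 ± 0.04 (SE, adjusted p = 0.008) and -0.20 ± 0.04 (SE, adjusted p = 0.0011). Psmd11, which joins lid and base, was at 97.8, 99.02, 93.9 and 99.1 CPM in untreated CD34- and 81.6, 94.03, 81.7 and 87.3 CPM in untreated CD34+ libraries, where mouse 2 of the CD34+ group just reached the CD34- range. Its log2 fold change was -0.18 ± 0.05 (SE, adjusted p = 0.0086) in untreated and -0.09 ± 0.05 (SE, adjusted p = 0.17) in N1-AcSpd cells, and the difference between these effects did not pass (0.09 ± 0.06, adjusted p = 1.0).

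In the base, 4 of 9 genes fell in untreated CD34+ cells (Psmc2, Psmc5, Psmd1 and Psmd2) and 5 in N1-AcSpd CD34+ cells (these and Psmc1), on TMM scaling, and none of the 9 fell on library totals. Psmd1, the large scaffold of the base, differed by -0.18 ± 0.04 (SE, adjusted p = 0.0039) and -0.17 ± 0.04 (SE, adjusted p = 0.0052). Psmc5, an ATPase, differed by -0.16 ± 0.05 (SE, adjusted p = 0.016) and -0.21 ± 0.05 (SE, adjusted p = 0.0021). The ATPase gene Psmc3 was the 1 constitutive subunit called higher on TMM scaling. It was at 89.7, 91.6, 91.5 and 91.04 CPM in untreated CD34- and 94.6, 96.99, 98.1 and 102 CPM in untreated CD34+ libraries, without overlap, and at 86.9, 83.5, 90.2 and 90.5 and 94.7, 97.97, 101 and 106 CPM with N1-AcSpd. Its log2 fold change was 0.11 ± 0.04 (SE, adjusted p = 0.051) in untreated cells and 0.19 ± 0.04 (SE, adjusted p = 0.0019) in N1-AcSpd cells, and it passed in both on library totals.

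**Figure D3:**
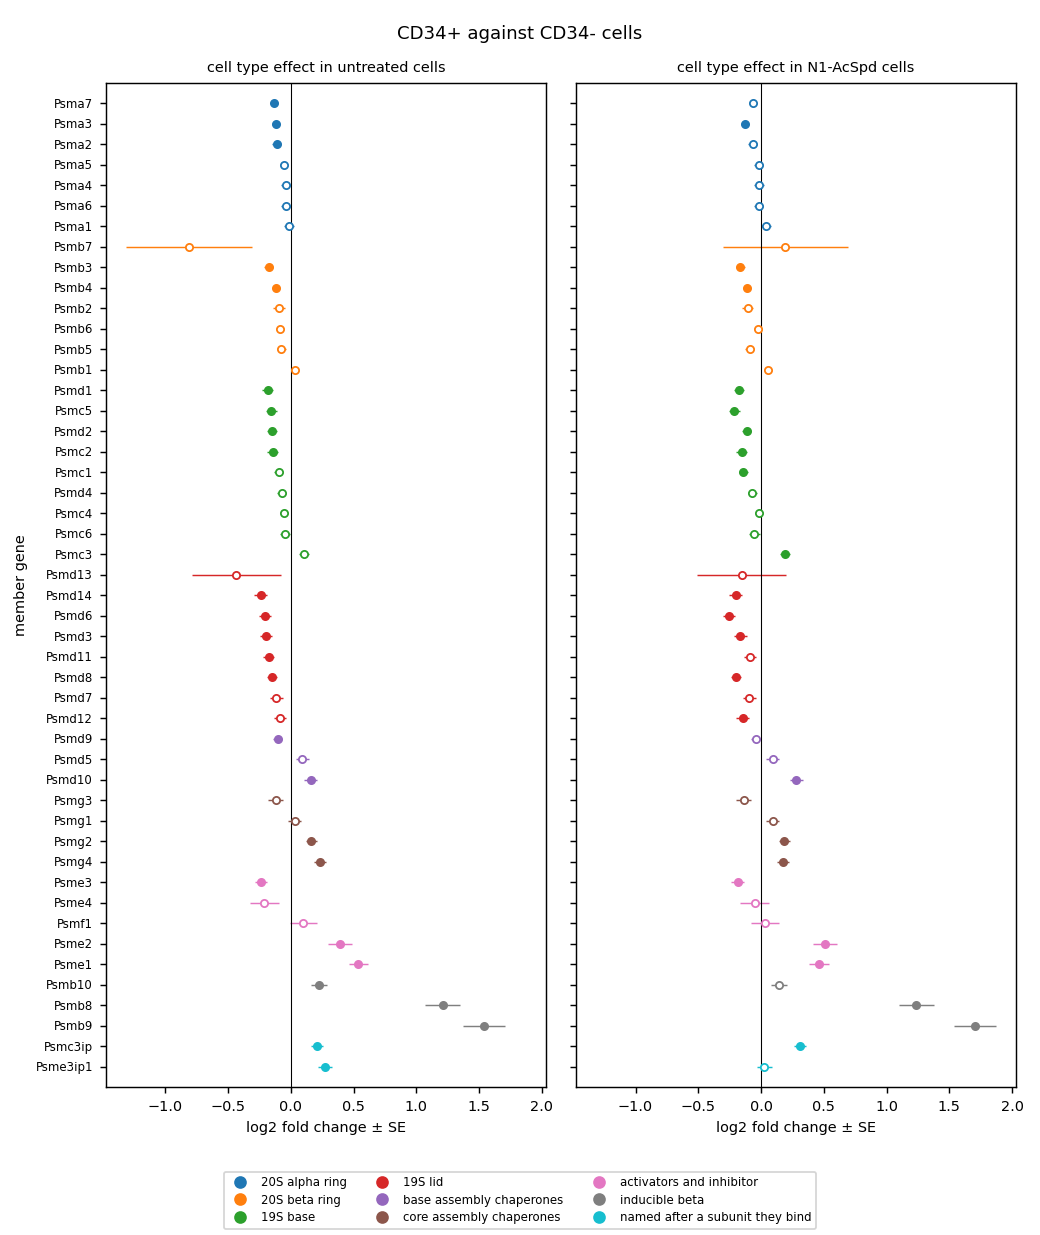
Log2 fold change ± SE of 48 members between CD34+ and CD34- cells, untreated (left) and with N1-AcSpd (right), ordered by role; filled points passed an adjusted p of 0.05 in edgeR with TMM scaling, and Psme2b and Psmb11 are left out for their large SE. Psmb8 and Psmb9 lay above 1.2 in both panels, and none of the ring, base and lid genes was called lower on library totals.

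Of 7 assembly chaperones, 3 rose in CD34+ cells in each condition (Psmd10, Psmg2 and Psmg4), 1 and 0 fell, and the others did not pass. The 3 rose on library totals too. Psmg4, a partner in building the alpha ring, was at 13.1, 13.2, 13.2 and 12.8 CPM in untreated CD34- and 15.9, 15.9, 15.1 and 14.5 CPM in untreated CD34+ libraries, a log2 difference of 0.23 ± 0.05 (SE, adjusted p = 0.0029), and 0.17 ± 0.05 (SE, adjusted p = 0.015) with N1-AcSpd. Psmg2 differed by 0.16 ± 0.05 (SE, adjusted p = 0.014) and 0.19 ± 0.05 (SE, adjusted p = 0.0058). Psmd10 (gankyrin), a chaperone of the base, differed by 0.16 ± 0.05 (SE, adjusted p = 0.035) and 0.28 ± 0.05 (SE, adjusted p = 0.00093), and mouse 1 to 4 values with N1-AcSpd were 19.3, 18.6, 19.2 and 18.9 CPM in CD34- and 22.01, 22.98, 23.1 and 24.2 CPM in CD34+ libraries. Psmd9 fell in untreated cells by 0.11 on the log2 scale with TMM, was not called lower on library totals, and did not pass with N1-AcSpd.

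The genes named after a subunit they bind are not parts of the particle. Psmc3ip, a cofactor of meiotic recombination, was at 14.6, 13.98, 14.9 and 14.2 CPM in untreated CD34- and 16.7, 16.8, 16.1 and 17.1 CPM in untreated CD34+ libraries, a log2 difference of 0.21 ± 0.05 (SE, adjusted p = 0.0049), and 0.31 ± 0.05 (SE, adjusted p = 0.00026) with N1-AcSpd. It overlaps Mlx on the other strand, which held 87.1 to 123.7% as many counts and matches it over 385 bases. Tags of one may therefore be counted for the other. Psme3ip1, which binds the Psme3 activator, differed by 0.27 ± 0.06 (SE, adjusted p = 0.0025) in untreated and 0.03 ± 0.06 (SE, adjusted p = 0.82) in N1-AcSpd cells.

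Genes that work with the immunoproteasome moved in the same direction as Psmb8 and Psmb9. Of 12 antigen processing and interferon genes, 9 rose in CD34+ cells in each condition and none fell, with medians of 0.46 and 0.51. Over all genes 16.1% rose in untreated and 16.5% in N1-AcSpd cells, on the same TMM scaling. The peptide transporter Tap1 rose by 0.97 ± 0.07 (adjusted p = 7.7e-07 in edgeR) and 0.84 ± 0.07 (adjusted p = 1.5e-06), Tap2 by 1.18 ± 0.12 (adjusted p = 4.7e-06) and 1.12 ± 0.12 (adjusted p = 6.6e-06), and the interferon regulatory factor Irf1 by 0.75 ± 0.12 (adjusted p = 0.00037) and 0.80 ± 0.12 (adjusted p = 0.0002). The MHC class I regulator Nlrc5 (-0.09 and -0.21) passed in neither condition. Of 21 proteasome partners and factors, 2 rose and 7 fell in untreated and 2 rose and 8 fell in N1-AcSpd CD34+ cells on TMM scaling. Over all genes 16.1% and 16.8% fell. The medians of the partners were -0.10 and -0.07. Their counts on library totals are not given, so the split by direction may depend on the scaling, as it did for members. The deubiquitinase Uchl5, which binds the 19S cap, fell by 0.88 ± 0.07 in both (adjusted p = 1.1e-06 and 8.1e-07), from 226 ± 13.8 to 123 ± 9.52 CPM without and from 262 ± 9.24 to 142 ± 13.2 CPM with N1-AcSpd. Pomp, which matures the core, and Nfe2l1, the factor that raises proteasome genes when the proteasome is blocked, passed in neither.

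Other large complexes are given beside the constitutive subunits, on TMM scaling. The chaperonin that folds actin and tubulin had medians of -0.18 and -0.19, with 7 of 8 genes lower in each condition. The translation factor eIF3 had medians of -0.11 and -0.14, with 7 and 8 of 14 genes lower. The COP9 signalosome, which is related to the lid in structure, had medians of 0.04 in both, with 1 higher and 1 lower of 9 genes in untreated and 3 higher and 1 lower in N1-AcSpd cells. On library totals 1 and 2 chaperonin genes, 4 and 3 eIF3 genes and 0 COP9 genes fell, and 5 COP9 genes rose in each condition.

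The treatment comparisons asked what 72 h of N1-AcSpd changed within each cell type. No member passed in CD34- cells with edgeR (0.614% of all genes did), 12 of 50 had an unadjusted p under 0.05 (13.6% of all genes), and DESeq2 called 6 (5.32% of the genes it kept). In CD34+ cells 1 member passed, Psmc3ip (0.325% of all genes), 16 had an unadjusted p under 0.05 (13.2%), and DESeq2 called 11 (6.33%). With mouse as a replicate block, edgeR called Psmc1 and Psme3 in CD34- cells (349 of 19049 genes) and Psmc3ip and Psme3 in CD34+ cells (152 of 19049 genes). Over the members the median log2 fold change was 0.06 in CD34- and 0.07 in CD34+ cells, beside 0.00 and -0.01 over all genes. All members called under any of these settings rose with N1-AcSpd.

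Averaged over both cell types, 11 of 50 members passed in edgeR (4.86% of all genes), and all 11 rose (2.7% of all genes rose). They were 4 alpha ring genes (Psma1, Psma2, Psma3 and Psma5), 4 ATPase genes of the base (Psmc1, Psmc2, Psmc4 and Psmc5), the lid gene Psmd12, Psme3 and Psmc3ip. The count was 12 on library totals (1039 of all 19049 genes) and 17 by DESeq2 (1546 of the 15225 genes it kept). It fell to 4 with no low-count filter (445 of 32989 genes). With mouse as a replicate block it was 13 (1551 of all 19049 genes), of which 12 rose and 1, the inhibitor Psmf1, fell (-0.16 ± 0.04, adjusted p = 0.035 in edgeR). It also fell without single libraries. It was 4, 6 and 6 without mouse 1, 2 or 3 of the untreated CD34- group, 5, 5 and 4 without mouse 2, 3 or 4 of the N1-AcSpd CD34- group, 5 and 6 without mouse 1 or 4 of the untreated CD34+ group and 5 and 6 without mouse 2 or 3 of the N1-AcSpd CD34+ group, and 2 or 3 without any 1 mouse. Psme3 and Psmc3ip passed in all 20 of these runs. Calls over all genes fell too, from 925 of 19049 in the main fit to between 524 and 766 in the single-library runs listed. Without a mouse they ran from 175 to 277.

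Psme3 had the largest averaged rise among the 11 called members, 0.22 ± 0.03 (SE, adjusted p = 0.005). It went from 26.4, 25.9, 24.5 and 23.4 to 28.2, 29.3, 29.3 and 27.8 CPM in CD34- cells and from 21.4, 21.98, 22.3 and 19.2 to 25.7, 24.9, 25.4 and 24.7 CPM in CD34+ cells. Treated libraries lay above untreated ones without overlap in both cell types, while the single effects, 0.19 ± 0.05 (SE, adjusted p = 0.099) and 0.24 ± 0.05 (SE, adjusted p = 0.061), did not pass. Psmc3ip went from 14.6, 13.98, 14.9 and 14.2 to 15.1, 15.4, 17.1 and 16.97 CPM in CD34- and from 16.7, 16.8, 16.1 and 17.1 to 20.1, 18.9, 19.5 and 21.5 CPM in CD34+ cells. Its averaged log2 fold change was 0.21 ± 0.03 (SE, adjusted p = 0.006), and in CD34+ cells alone 0.26 ± 0.05 (SE, adjusted p = 0.047). That single call was lost in 17 of 20 runs without a library or mouse, in the fit of the 8 compared libraries and with no low-count filter.

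Of the ATPase genes, 4 rose. Psmc1 was at 99.3, 97.5, 97.2 and 101 CPM in untreated and 105, 108, 112 and 114 CPM in treated CD34- libraries, and at 91.6, 93.8, 91.1 and 92.7 and 94.6, 96.4, 106 and 101 CPM in CD34+ libraries. Neither cell type had an overlap, and the averaged log2 fold change was 0.13 ± 0.03 (SE, adjusted p = 0.014). Psmc4 was at 58.9, 58.99, 59.2 and 59.3 CPM in untreated and 64.2, 64.97, 65.1 and 64.1 CPM in treated CD34+ libraries, where the untreated values lay closest together, and its averaged log2 fold change was 0.11 ± 0.02 (SE, adjusted p = 0.01). Psmc2 rose by 0.13 ± 0.03 (SE, adjusted p = 0.024) and Psmc5 by 0.13 ± 0.03 (SE, adjusted p = 0.039). In the alpha ring, Psma5 rose by 0.10 ± 0.02 (SE, adjusted p = 0.034) and Psma3 by 0.08 ± 0.02 (SE, adjusted p = 0.034). The averaged calls of Psma3, Psma5, Psmc1, Psmc2, Psmc4 and Psmc5 were lost in 14, 12, 3, 7, 4 and 15 of the 20 runs.

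The inducible and 11S genes did not take part in these calls. Averaged log2 fold changes were -0.05 ± 0.10 (SE, adjusted p = 0.87) for Psmb8, -0.15 ± 0.12 (SE, adjusted p = 0.54) for Psmb9, -0.02 ± 0.05 (SE, adjusted p = 0.94) for Psme1 and -0.01 ± 0.07 (SE, adjusted p = 0.98) for Psme2. Psmb10 had 0.16 ± 0.05 (SE, adjusted p = 0.056) and passed with library totals, with DESeq2 and with the replicate block. Psmb5, Psmb6, Psmd11, Psmd14 and Psme4 had averaged values of 0.06, 0.04, 0.09, 0.10 and -0.12 and did not pass. None of the 12 antigen processing genes and 3 of the 21 partners passed, the latter Uchl5 (0.21), Txnl1 (0.11) and Ufd1 (0.14), all higher. Summed over the 9 base genes, the level went from 760.0 ± 12.2 to 805 ± 11.9 CPM in CD34- and from 718 ± 15.9 to 760.3 ± 14.4 CPM in CD34+ cells.

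**Figure D4:**
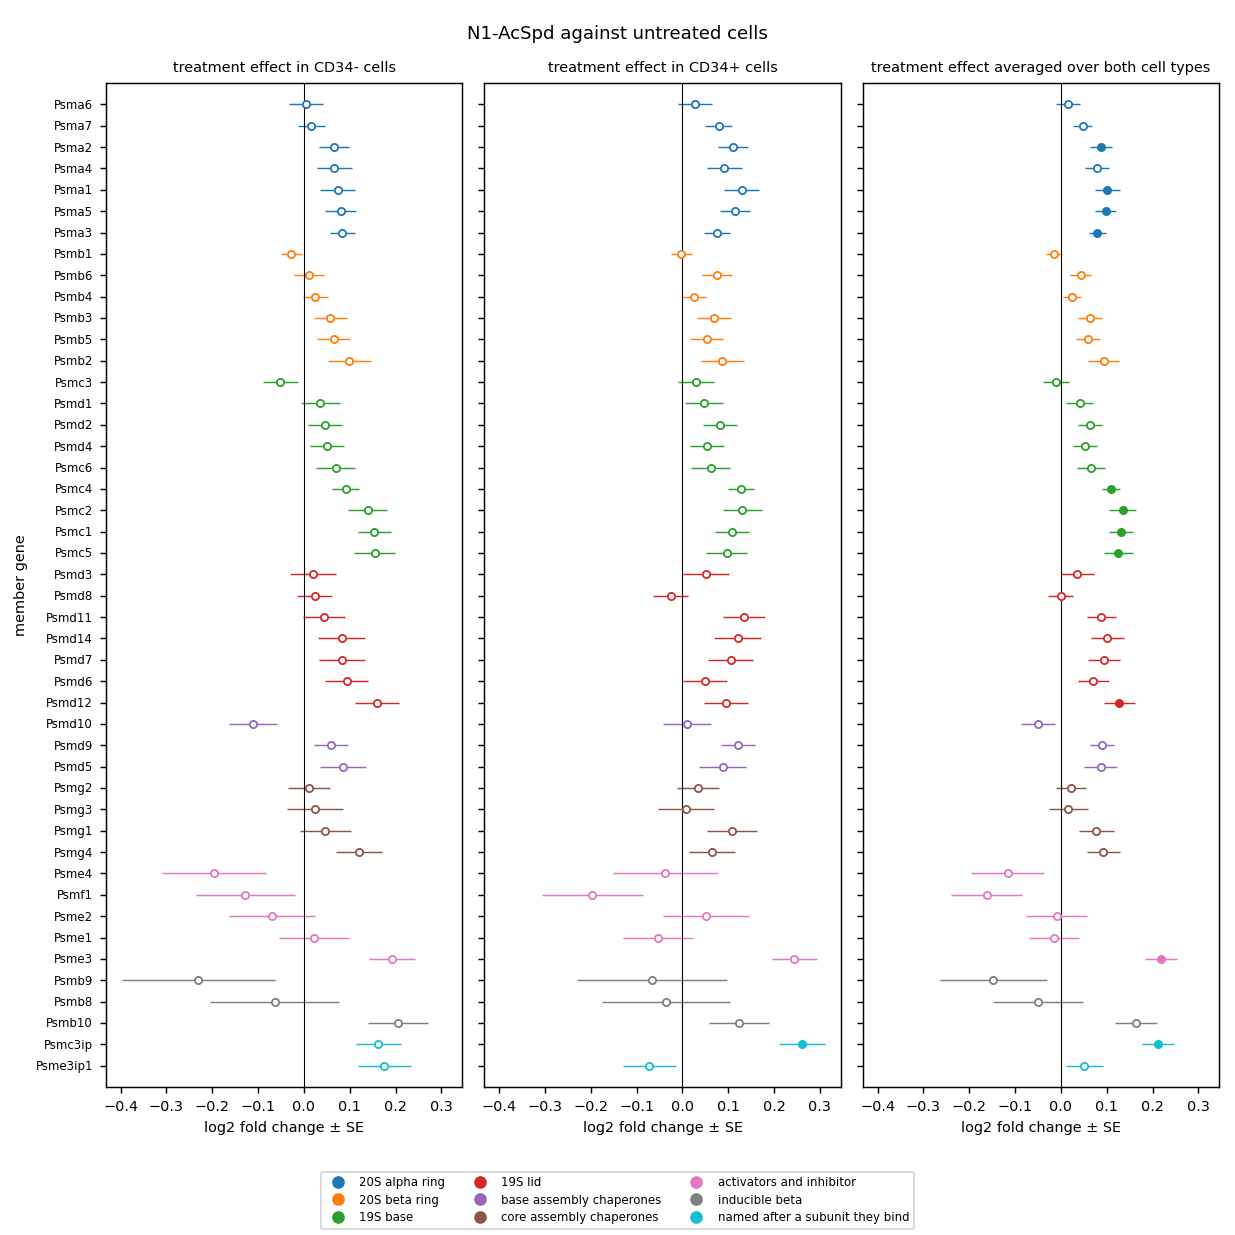
Log2 fold change ± SE of 46 members between N1-AcSpd and untreated cells, in CD34- cells, in CD34+ cells and averaged, ordered by role; filled points passed an adjusted p of 0.05, and Psme2b, Psmb11, Psmb7 and Psmd13 are left out for their large SE. Most points lay just above 0, and 11 passed in the averaged panel, all of them higher.

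Other complexes and markers also had calls in the averaged comparison. 1 of 8 chaperonin genes, 3 of 14 eIF3 genes and 2 of 9 COP9 genes rose and none fell, with medians of 0.06, 0.03 and 0.08, beside 0.08 for the 31 constitutive 26S subunits. The differentiated keratinocyte markers Ivl (0.60 ± 0.10, adjusted p = 0.005 in edgeR) and Sbsn (0.25 ± 0.06, adjusted p = 0.035) rose among 10. Of 6 HFSC and follicle markers Krt15 fell (-0.37 ± 0.10, adjusted p = 0.045), and the summed level of the 6 ran from 136 to 152 CPM in untreated and from 115 to 125 CPM in treated CD34- libraries, and from 488 to 653 and 400.3 to 590 CPM in CD34+ libraries. The part of either marker list in the proteasome differences was not tested.

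The interaction asked whether the cell type effect differed with N1-AcSpd. No member passed, as no gene did (0% of all genes in edgeR). 1 member, Psme3ip1, had an unadjusted p under 0.05 (4.19% of all genes), and DESeq2 called no member (0.384% of the genes it kept). Psme3ip1 had -0.25 ± 0.08 (SE, adjusted p = 1.0), with values of 10.4, 11.2, 9.96 and 9.97, then 11.6, 11.5, 11.8 and 11.97 CPM in untreated and treated CD34- libraries and 11.1, 12.8, 12.7 and 13.5, then 11.8, 12.7, 11.4 and 11.9 CPM in untreated and treated CD34+ libraries. The members next by p were Psmd10 at 0.12 ± 0.07, Psma7 at 0.06 ± 0.04 and Psmc3 at 0.08 ± 0.06, none with an unadjusted p under 0.05.

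Counts of Psmb7, Psmd13 and Psme2b switched between levels within groups, and Psme2b is described below with the absent members. Psmb7 (ENSMUSG00000026750, chromosome 2, 38588036 to 38644087), the third cutting subunit, was at 101, 109, 108 and 38.3 CPM in untreated CD34- libraries and at 97.6, 37.2, 32.9 and 35.3 CPM in untreated CD34+ libraries. With N1-AcSpd it was at 104, 42.04, 40.2 and 101 and 102, 97.2, 29.4 and 101 CPM. Each group held both high and low libraries. A processed pseudogene inside the gene, Gm13586 on the other strand, held 60.1 to 64.4% of the Psmb7 count in the 9 high libraries and at most 3.87% in the 7 low ones. With its counts taken off, Psmb7 ran from 28.6 to 40.6 CPM over all 16 libraries. A further gene, Nek6, overlaps Psmb7 on the other strand and held 42.2 to 135.2% as many counts as Psmb7. The counts of Nek6 were not taken off, so tags of one may be counted for the other.

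The lid gene Psmd13 (ENSMUSG00000025487, chromosome 7, 140881968 to 140898643) behaved alike. It was at 56.5, 62.4, 49.1 and 19.5 CPM in untreated CD34- and 49.5, 20.2, 18.9 and 50.2 CPM in untreated CD34+ libraries, and 3 of the 16 libraries were low. The pseudogene Gm15542, within Psmd13 on the same strand, held 59.1 to 66.6% of its count in the other 13 libraries and at most 4.01% in those 3. Without it Psmd13 ran from 17.3 to 22.9 CPM. Neither gene passed in any comparison, before or after the pseudogene counts were taken off.

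**Figure D5:**
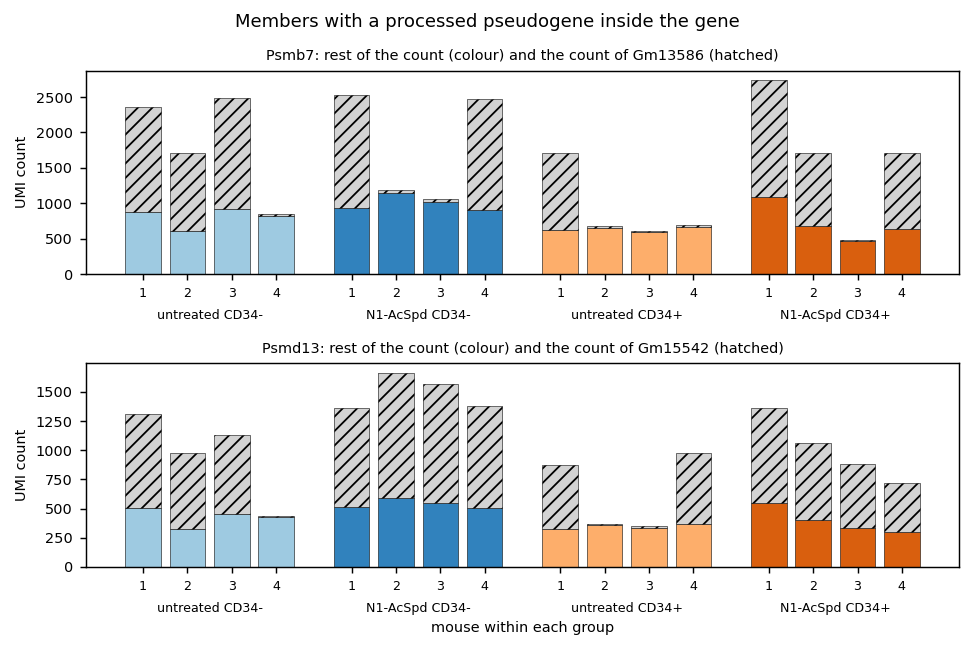
UMI counts of Psmb7 and Psmd13 in each library, by group and mouse, split into the count of the pseudogene inside the gene (hatched) and the rest (colour). The pseudogene part was present in 9 of 16 libraries for Psmb7 and 13 of 16 for Psmd13 and near 0 in the others, while the rest ran from 28.6 to 40.6 CPM for Psmb7 and from 17.3 to 22.9 CPM for Psmd13.

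Few members were absent. Psma8, an alpha subunit of the testis, had 1 UMI in each of 2 libraries and none in the other 14. Psmb11, the thymus beta subunit, was listed at 0 in 1 library (N1-AcSpd CD34+ mouse 3) and ran from 0.88 to 1.90 CPM in the others. Psme2b was at 0 in untreated CD34- mouse 3, N1-AcSpd CD34- mouse 4 and N1-AcSpd CD34+ mouse 2 and between 49.6 and 81.3 CPM in the other 13 libraries. Its counts matched those of the overlapping model Gm12185 within 2% in 15 libraries.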

How the data were processed

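RNA of 16 libraries (4 groups of 4 mice) was sequenced from the 3' end with UMIs. Per the methods and the submitters' processing notes, the authors demultiplexed reads with FLEXBAR, pseudoaligned the second read to mm10 with kallisto 0.45.0, intersected positions with genes in bedtools and counted unique UMIs per gene. The deposited values are these counts, not normalized. Empty cells (156050) were read as 0. Strand setting and annotation release are not given in the sources used here.

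Identifiers were matched to GENCODE vM21 (GRCm38), and 32927 of 32989 had a symbol. Members and gene lists were chosen with earlier results of these data known. The 19049 genes whose mean count reached 5 were fitted over all 16 libraries with edgeR 4.0.16 in R 4.3.3 (TMM, quasi-likelihood test, 1 mean per group), and a Benjamini-Hochberg adjusted p under 0.05 over all genes was called. The treatment effect averaged over both cell types and the interaction were contrasts of the same fit. Totals of 15480075 to 29074855 UMIs set the counting precision.

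Genes were named by a rule: the 8 largest calls per direction with a mean count of at least 50 in each cell type comparison, treatment calls up to 8 by p, the catalytic, inducible and activator genes with Psmd11 and Psmd14, and members with low or 0 counts. Other members in a count were named after their values were seen. Alternatives were DESeq2 1.42.0, DESeq2 size factors, library totals, 2 other filters, the 8 compared libraries, mouse as a replicate block, and leaving out each library or mouse. Taking nested pseudogene counts off was added after seeing the data. Replicate numbers mark the mouse in the labels, so they pair the samples. Deviations of same-mouse libraries correlated at 0.02 on average (24 pairs, -0.09 to 0.12).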

Additional observations from a re-analysis of the deposited data

Results flagged for a closer look

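Of 124 group tests over 31 named genes, 10 had a library far from the other 3 by Dixon's criterion, and chance gives about 1 in 20. Psmb7 gave 3 of them: untreated CD34- mouse 4 at 38.3 CPM, untreated CD34+ mouse 1 at 97.6 CPM and N1-AcSpd CD34+ mouse 3 at 29.4 CPM, the libraries in which the nested pseudogene count was absent or present unlike in the rest of their group. Psmd14 gave 2, N1-AcSpd CD34- mouse 1 at 69.3 CPM and N1-AcSpd CD34+ mouse 3 at 67.7 CPM. Psmg2 gave 2, N1-AcSpd CD34- mouse 4 at 20.2 CPM and N1-AcSpd CD34+ mouse 4 at 19.8 CPM. The others were Psmb6 in N1-AcSpd CD34+ mouse 3 at 229 CPM, Psmb9 in N1-AcSpd CD34- mouse 1 at 8.74 CPM and Psmc5 in N1-AcSpd CD34- mouse 4 at 119 CPM.

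The treatment effect on Psmc3 was -0.0512 in CD34- cells, lower in 4 of 4 mice, and 0.03 in CD34+ cells, higher in 4 of 4 mice. The interaction was 0.08 with an adjusted p of 1.0 in edgeR, so that the difference did not pass.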

How the results depend on the processing

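On library totals, 3 of 26 members called in untreated cells (Psma2, Psmb4 and Psmd9) and 2 of 23 called in N1-AcSpd cells (Psmb4 and Psmd2) changed sign and lost the call, and the median over members, which has no test, changed sign. The median member difference between cell types moved in untreated cells to -0.10 with DESeq2 size factors and with DESeq2 and to 0.0336 on library totals (14 calls), and in N1-AcSpd cells to 0.0635 on library totals and -0.0368 in the fit of 8 libraries. Treatment calls in CD34- cells were 2 with mouse as a replicate block and 6 by DESeq2. In CD34+ cells they were 2 on library totals, 2 with the replicate block, 0 with no low-count filter, 0 in the fit of 8 libraries and 11 by DESeq2. Averaged calls were 4 with no low-count filter and 17 by DESeq2. The block gave 27, 23, 13 and 0 calls for the cell type comparisons, the average and the interaction. Leaving out a library or mouse gave 15 to 28 and 15 to 24 cell type calls, 0 to 1 treatment calls in each cell type and 2 to 14 averaged calls. Medians then ran from -0.0658 to -0.0298 (N1-AcSpd cell type), from 0.0587 to 0.0956 (treatment in CD34+) and from 0.0104 to 0.0489 (interaction). The cause was not tested. Counts that may be shared with copies, overlapping genes, antisense models or nested pseudogenes limit Psmb7, Psmd13, Psme2b, Psmb8, Psma3 and Psmc3ip.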
